A study of Mus musculus with 6 samples.

Results

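The effect of Bmi1 knockout common to both blood-forming populations was taken from all 6 arrays of the study. On each array, RNA of Bmi1 KO cells was labelled red (Cy5) and RNA of WT cells green (Cy3). Of the 6 arrays, 3 held multipotent progenitors (MPPs), the first descendants of stem cells, and 3 held hematopoietic stem cells (HSCs), which sustain blood formation for life. Both populations were sorted by FACS from C57BL6 mice of 2 to 3 months that carried no other stated allele or treatment. The labels call the replicates biological and do not say which part of Bmi1 was removed, how many mice were pooled, or their sex. For each of 44640 kept probes out of 55681, the log2 ratio of KO over WT was averaged over the MPP and HSC arrays with equal weight and tested against 0. A gene was counted as having several agreeing probes when at least 2 of its probes of different sequence had one sign on all 6 arrays and no kept probe had a mean of the other sign. Of 8788 genes and transcript regions with at least 2 kept probes of different sequence, 27 met this in the higher direction and 34 in the lower. KO was red on every array, so dye and genotype cannot be told apart in any ratio of KO over WT.

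Bmi1 encodes a RING-finger subunit of Polycomb repressive complex 1 (PRC1), which ubiquitylates histone H2A. Chromobox (Cbx) subunits of the same complex bind trimethylated lysine of histone H3, the mark laid down by Polycomb repressive complex PRC2. In blood stem cells Bmi1 is known as a repressor of Cdkn2a, which encodes the CDK inhibitor p16Ink4a and the p53 activator p19Arf, and it is needed for self-renewal. In bulk RNA of sorted cells, a change in the share of a cell type and a change of RNA per cell cannot be told apart.

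The median spot intensity lay between 378.9 and 581.4 in red and between 124 and 206 in green, and 78.8% to 83.9% of spots were well above background in red against 72.5% to 82.2% in green. Log2 ratios of different arrays correlated weakly across probes, with Pearson's r between -0.013 and 0.20 among MPP arrays and between -0.070 and 0.080 among HSC arrays. Between an MPP and an HSC array r lay between -0.018 and 0.092. All arrays lay on 1 slide, with MPP replicates 2 and 3 in its second row. Of 30 markers and factors of stem cells measured, 27 were well above background on every array in both channels. Of 13 B lineage genes 10 were, and of 14 genes of T and NK cells 12 were, so markers of other lineages gave signal in all groups too. The X-inactivation transcript Xist had ratios of -1.26, 0.098 and -1.36 in MPPs and -0.86, -0.25 and 1.26 in HSCs, which differed in sign between arrays.

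Signed values below are log2 ratios of KO over WT, so a positive value means more in KO. Values by array run over replicates 1, 2 and 3 of each population. A mean is the average of both populations ± the standard error (SE) of the limma fit on 6 arrays. Bmi1 itself, the targeted gene, had gene means of 0.58, 0.0071 and 0.22 in MPPs and -0.14, -2.04 and 0.43 in HSCs. Its mean was -0.16 ± 0.33, and its lowest value, on HSC replicate 2, set the sign. Without that array the mean was 0.21. One Bmi1 probe (chr2:18607531-18607590) averaged -0.55 ± 0.33 and the other (chr2:18607987-18608046) 0.23 ± 0.40. A probe outside the removed part would show no loss, so these probes do not check the genotype, which is taken from the labels. Cdkn2a had 1.55, 0.58 and 1.18 in MPPs and 0.32, 0.27 and -2.51 in HSCs, with KO above WT on 5 of 6 arrays and a mean of 0.23 ± 0.41 that came to -0.0082 without HSC replicate 1. Cdkn2b, the neighbouring inhibitor gene for p15Ink4b, had 0.63, 0.86 and 0.38 in MPPs. In HSCs KO was well above background on 1 array and WT on 0, so no ratio is given there. Its other probe was left out because it did not stand well above background on all 3 arrays of any group.

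The counts rest on pairs of probes of 1 gene, and these were of 2 kinds. Some pairs lay apart on the transcript and measured it independently in sequence, and others overlapped, with identical runs of 8 to 51 of their 60 bases in the genes named here. Stretches of 30 bases from such pairs are shown 5′ to 3′, as the array files give them, with mm9 positions of the whole probes on the minus strand. Pairs that lay apart are shown for Rbm3, Cbx7 and Lgals3bp, in lower case throughout.
Rbm3 probe at chrX:7719656-7719715: atggccagaaagtgatttctgaatgtacct
Rbm3 probe at chrX:7720785-7720844: atgacagtcgtcctggaggatatggatatg
Cbx7 probe at chr15:79746240-79746299: ttagatgatttatctgatagatgaggcaaa
Cbx7 probe at chr15:79748605-79748664: tatttttattttttaaaaaagtagaagcac
Lgals3bp probe at chr11:118254070-118254129: tactgcagtagccccatctgtcacagtcac
Lgals3bp probe at chr11:118254332-118254391: agcagcttccgtgtggtcatacgccccttc

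Overlapping pairs are shown for Atp5pb and Rbis, with the bases that both probes share in capitals.
Atp5pb probe at chr3:105745782-105745841: CTCTTTCTGTATTGCTATCTATTGAaataa
Atp5pb probe at chr3:105745817-105745876: aagaaCTCTTTCTGTATTGCTATCTATTGA
Rbis probe at chr3:14606293-14606352: tgtaatacagAGATAGTGCATCACATTCCC
Rbis probe at chr3:14606298-14606357: tataatacaaAGATAGTGCATCACATTCCC

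The Atp5pb pair shares a run of 25 bases and the Rbis pair one of 43. The Rbis pair starts 5 bases apart and differs in the lower-case bases as well, and its values on the 6 arrays were nearly equal.

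No probe and no gene passed the test of the shared effect. By limma with Benjamini-Hochberg adjustment, 0 of 44640 probes (0%) and 0 of 29134 gene means (0%) had an adjusted p under 0.05, and the smallest adjusted p was 0.619 for probes and 0.602 for genes. At an unadjusted p under 0.05 there were 3527 probes, 1850 higher and 1677 lower in KO. Among gene means there were 2358, 1245 higher and 1113 lower. The count depended on the scaling: with each array centred on its median and no intensity-dependent loess, 157 probes and 92 genes passed, all higher in KO. That centring moved the median of all genes to 0.23, against -0.0065 with loess.

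**Figure D1:**
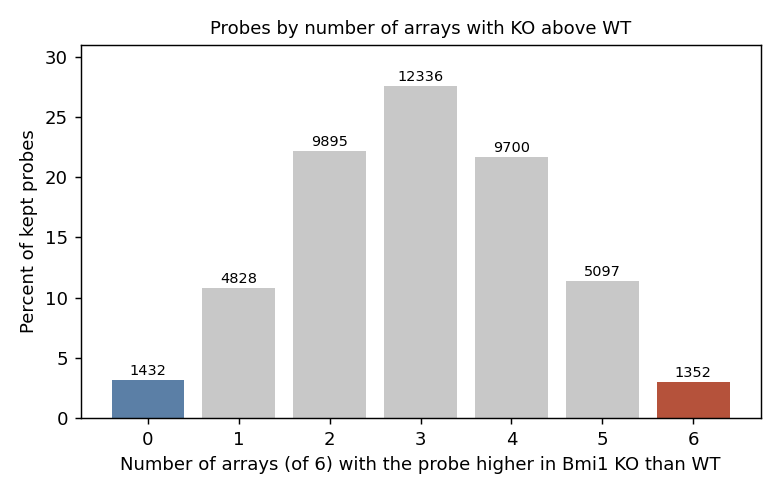
Percent of the 44640 kept probes (y axis) by the number of the 6 arrays on which the log2 ratio of KO over WT was above 0 (x axis). Most probes sit in the middle, with 12336 at 3 arrays, while 1352 probes were higher on all 6 and 1432 lower on all 6.

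A shared sign on all 6 arrays was found for 1352 probes in the higher direction (3.03%) and 1432 in the lower (3.21%). Over gene means the counts were 868 (2.98%) and 907 (3.11%). The plot of probes by number of arrays shows that these are the thin ends of a distribution with its bulk at 2 to 4 arrays. Requiring several agreeing probes left 27 genes and regions higher (0.307%) and 34 lower (0.387%). Those higher had a median of 0.73, between 0.20 and 1.34, and those lower a median of -0.57, between -1.25 and -0.15. Of the 61, 17 have a gene symbol (8 higher, 9 lower), 40 are regions of long intergenic noncoding RNA (lincRNA; 17 higher, 23 lower), and 4 are clones or predicted genes. Just outside the rule, 245 and 288 genes had exactly 1 probe of one sign on all 6 arrays and none opposing, in the higher and lower direction. Another 14 and 31 had at least 2 such probes and a further probe that opposed them.

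Agreement between the probes of a gene depended on whether they overlapped. Among 5306 genes with exactly 2 probes, 4986 pairs did not overlap, and their log2 ratios correlated with r between 0.17 and 0.27 across genes on the 6 arrays. In the 296 overlapping pairs r lay between 0.82 and 0.86. These are correlations across genes, which share the array and its normalization, and they are given as a description. Where both probes had one sign on all 6 arrays, the signs matched in 14 and opposed in 14 of the pairs that did not overlap. They matched in 8 and opposed in 0 of the overlapping pairs. At least 1 pair that did not overlap was present in 19 of the 27 higher and 28 of the 34 lower genes and regions. Among those with a gene symbol it was present in 3 of 8 higher and 5 of 9 lower.

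**Figure D2:**
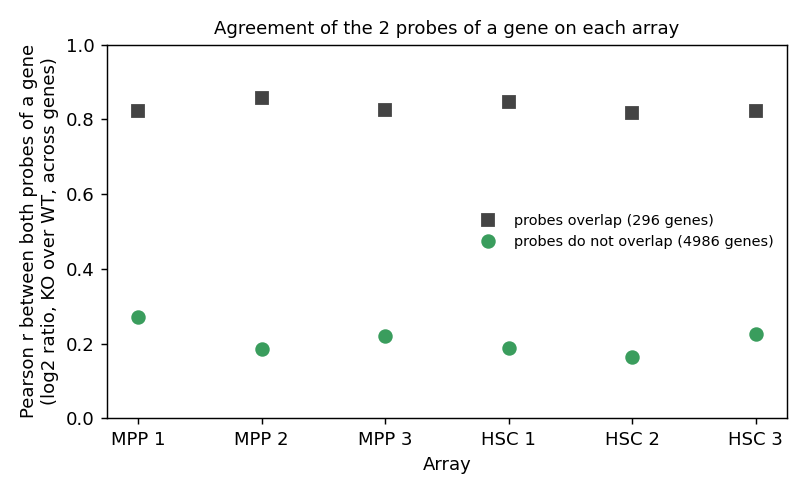
Pearson's r across genes between the log2 ratios of both probes of a gene (y axis) on each array (x axis), for genes with exactly 2 probes. Overlapping pairs (296 genes) lay between 0.82 and 0.86 on every array and pairs that do not overlap (4986 genes) between 0.17 and 0.27.

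Among genes lower in KO with probes apart, Cbx7 belongs to the same complex as Bmi1. Cbx7, the chromobox subunit that binds the methylated histone, had gene means of -0.27, -0.19 and -1.09 in MPPs and -0.33, -1.25 and -0.21 in HSCs. All 6 arrays lay below 0, with the lowest values on MPP replicate 3 and HSC replicate 2. Its mean was -0.56 ± 0.22 (unadjusted p 0.041, adjusted p 0.606 by limma), and its probes, 2305 bases apart, averaged -0.61 ± 0.21 and -0.51 ± 0.26. The second of these probes was close to 0 on MPP replicate 1 (-0.050) and HSC replicate 3 (-0.0051).

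Lgals3bp, which encodes a secreted glycoprotein that binds galectin-3, was the lowest of the 9 symbols. It had gene means of -0.20, -1.35 and -2.39 in MPPs and -0.86, -1.14 and -0.47 in HSCs, and its mean was -1.07 ± 0.29. MPP replicates varied more than HSC replicates, and both probes followed the same order among them. One probe gave -0.12, -1.31 and -2.59 in MPPs and -0.34, -0.97 and -0.30 in HSCs, and the other, 202 bases away, gave -0.28, -1.39 and -2.19 in MPPs and -1.38, -1.31 and -0.64 in HSCs. Gigyf1, an adaptor named for its binding to Grb10, had gene means of -0.45, -0.65 and -0.32 in MPPs and -0.74, -0.40 and -0.95 in HSCs, a mean of -0.59 ± 0.15 and the narrowest range of these genes. Its probes did not follow each other: the one with the larger effect (-0.84 ± 0.27) was lowest on HSC replicates 1 and 3, where the other (-0.33 ± 0.17) was closest to 0. Tcof1, whose product treacle supports transcription of ribosomal RNA genes, had -0.28, -0.55 and -0.70 in MPPs and -0.88, -0.22 and -1.11 in HSCs and a mean of -0.62 ± 0.18. Its mean turned to 0.053 with median centring, and it no longer met the rule with the deposited log ratio or with centring on the kept probes. Ankrd34a, an ankyrin repeat gene, had -0.86, -0.42 and -0.47 in MPPs and -1.24, -0.25 and -0.48 in HSCs and a mean of -0.62 ± 0.19, with its lowest array HSC replicate 1.

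Probes apart were also found for 3 genes higher in KO. Rbm3, which encodes an RNA-binding protein induced by cold, had gene means of 0.70, 0.79 and 1.13 in MPPs and 0.44, 0.042 and 0.44 in HSCs over 3 probes. The MPP arrays lay above the HSC arrays without overlap, and HSC replicate 2 was close to 0. Its mean was 0.59 ± 0.15, the difference of MPPs minus HSCs was 0.57 ± 0.30 (unadjusted p 0.108), and its probes averaged 0.58 ± 0.32, 0.61 ± 0.17 and 0.57 ± 0.23. The first of these was below 0 on 3 arrays, so 2 of the 3 probes carried the agreement. Mrps36, named as a mitochondrial ribosomal protein and later assigned to the oxoglutarate dehydrogenase complex, had 0.28, 1.15 and 1.78 in MPPs and 0.18, 1.69 and 0.83 in HSCs and a mean of 0.99 ± 0.28. Calm2, one of the genes for the calcium sensor calmodulin, had 0.10, 0.20 and 0.79 in MPPs and 0.15, 1.37 and 0.73 in HSCs and a mean of 0.56 ± 0.21. In both genes replicate 1 was the lowest array of each population.

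The other symbols rested on overlapping probes. Atp5pb, subunit b of the mitochondrial ATP synthase, had gene means of 0.54, 1.87 and 0.25 in MPPs and 0.19, 1.18 and 0.66 in HSCs and a mean of 0.78 ± 0.26. Rbis, a ribosome biogenesis factor, had 0.51, 1.05 and 1.5 in MPPs and 0.15, 0.58 and 2.19 in HSCs and a mean of 1.00 ± 0.30. Tpt1, the translationally controlled tumour protein, had 0.61, 0.55 and 0.16 in MPPs and 0.36, 1.00 and 0.72 in HSCs and a mean of 0.57 ± 0.16. Platr26, a noncoding transcript, had 0.24, 0.56 and 0.43 in MPPs and 0.35, 0.63 and 0.63 in HSCs and a mean of 0.48 ± 0.14. In these 4 genes the MPP and HSC arrays overlapped in range.

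Of the lower genes with overlapping probes, Sult1a1, a sulfotransferase for phenols, had -0.72, -0.41 and -0.78 in MPPs and -0.31, -0.37 and -0.84 in HSCs and a mean of -0.57 ± 0.16. Olfr884, an olfactory receptor gene, had -0.36, -1.38 and -0.44 in MPPs and -0.21, -1.06 and -0.44 in HSCs and a mean of -0.65 ± 0.21. H2-K2, of the class I major histocompatibility genes, had -0.22, -0.93 and -1.28 in MPPs and -0.11, -0.43 and -0.22 in HSCs and a mean of -0.53 ± 0.19, and its mean turned to 0.40 with median centring. Spatc1l, a gene named after a centriole protein of sperm, had -0.52, -0.47 and -0.22 in MPPs and -0.56, -0.41 and -0.19 in HSCs and a mean of -0.40 ± 0.14. Sulfotransferase, olfactory receptor and class I genes, and Tpt1, have near-identical relatives or pseudogenes, so which copy these probes measured is uncertain.

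**Figure D3:**
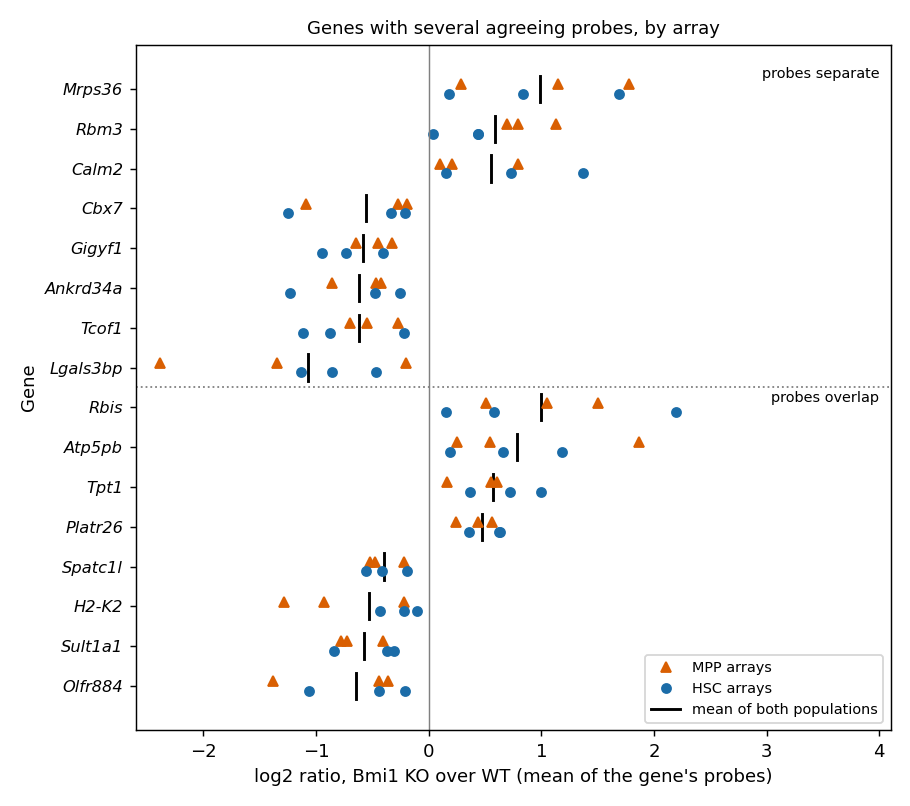
Log2 ratio of KO over WT (x axis) of the named genes with several agreeing probes (y axis), as the mean of each gene's probes on every MPP array (triangles) and HSC array (circles), with the mean of both populations as a bar. Genes higher in KO lie right of 0 on all 6 arrays, from 0.48 for Platr26 to 1.00 for Rbis, and genes lower in KO lie left of it.

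Adjusted p-values of the 17 symbols lay between 0.602 and 0.606 by limma, so none passed. They were chosen for their constant sign, and small unadjusted p-values are part of that choice. The MPP and HSC effects of the 61 genes and regions differed at an unadjusted p under 0.05 in 1 of the higher and 3 of the lower. All 17 also agreed without background subtraction. With the deposited log ratio 5 of the 8 higher and 6 of the 9 lower did, and with centring on the kept probes, chosen after seeing the data, 6 and 2. Ankrd34a, Atp5pb and Rbis agreed under each of these settings, and also where probes had to be well above background in both channels.

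A wider class asked only that the gene mean have one sign on all 6 arrays and that every probe average to that sign. It held 165 genes and regions higher (1.88%) and 211 lower (2.4%) in KO. Ciao1, which helps to insert iron-sulfur clusters into cytosolic and nuclear proteins, had -0.59, -0.87 and -0.94 in MPPs and -1.03, -1.41 and -1.12 in HSCs and a mean of -0.99 ± 0.15. Its probes ran against each other, with -3.36 and 0.53 on HSC replicate 2 and -0.25 and -1.99 on HSC replicate 3, and averaged -1.07 ± 0.46 and -0.92 ± 0.37. Spryd7, a protein with a SPRY domain, had -0.43, -0.68 and -1.03 in MPPs and -1.47, -1.76 and -2.06 in HSCs and a mean of -1.24 ± 0.16. Every HSC array lay below every MPP array, with a difference of MPPs minus HSCs of 1.05 ± 0.33 (unadjusted p 0.0171). Its probes gave 1.13 and -3.19 on MPP replicate 3. Arglu1, a coactivator and splicing regulator, had -0.84, -0.67 and -0.85 in MPPs and -0.56, -0.37 and -0.77 in HSCs and a mean of -0.68 ± 0.14, and came to 0.087 with median centring. One Arglu1 probe averaged -1.20 ± 0.25 with all 6 arrays below 0, and the other averaged -0.15 ± 0.23 and was above 0 on MPP replicates 2 and 3.

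On the higher side of the wider class, Ltbp3, which binds latent transforming growth factor beta, had 1.04, 1.39 and 0.47 in MPPs and 0.88, 1.91 and 1.29 in HSCs and a mean of 1.16 ± 0.21. Atp13a1, a transporter of the endoplasmic reticulum, had 0.41, 0.32 and 0.90 in MPPs and 1.18, 1.54 and 2.34 in HSCs and a mean of 1.12 ± 0.20. Both gene means were above 0 throughout, Atp13a1 with every HSC array above every MPP array, but 1 probe of each lay below 0 on 1 array. Rag1, a subunit of the recombinase that assembles antigen receptor genes, had 1.94, 2.73 and 3.76 in MPPs and 0.030, 0.13 and 0.69 in HSCs and a mean of 1.55 ± 0.26. Its MPP arrays lay far above its HSC arrays, with a difference of 2.53 ± 0.52 (unadjusted p 0.00247, adjusted p 0.977 by limma). Cecr2, a bromodomain protein of chromatin remodelling complexes, had 1.86, 2.11 and 3.52 in MPPs and 0.18, 0.21 and 0.91 in HSCs and a mean of 1.47 ± 0.26, with a difference of 2.06 ± 0.52. A common sign thus included genes whose effect lay mostly in one population. Taken by probe, 0 of 2 probes of Rag1 and 1 of 3 of Cecr2 were above 0 on all 6 arrays.

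Noncoding regions made up 40 of the 61 members, and they lay in 37 separate loci, 16 higher and 21 lower. Among the 8788 genes and regions with several probes, 3347 were such regions and 4977 had a gene symbol. The 40 regions carried up to 10 probes each, and more probes give more chances to meet the rule. These regions are lincRNA candidates named by mm9 position and strand in the array design, with F for the forward and R for the reverse strand. The files give them no gene name. The lowest mean was at chr11:95630200-95631470, strand F, where all 3 probes were lower in KO on all 6 arrays. The region averaged -1.04, -2.77 and -2.05 in MPPs and -0.33, -0.84 and -0.46 in HSCs, with a mean of -1.25 ± 0.25 (unadjusted p 0.00197, adjusted p 0.602 by limma). Every MPP array lay below every HSC array, and the difference had an unadjusted p of 0.027. Its 3 probes do not overlap and are printed whole because every probe of the region agreed, 5′ to 3′ on the plus strand of mm9.
Probe at chr11:95631186-95631245: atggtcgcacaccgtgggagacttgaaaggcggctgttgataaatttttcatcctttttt
Probe at chr11:95631301-95631360: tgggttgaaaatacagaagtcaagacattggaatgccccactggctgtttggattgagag
Probe at chr11:95631376-95631435: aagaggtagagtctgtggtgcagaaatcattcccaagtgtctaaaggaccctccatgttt

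On each array these 3 probes gave close values. The probe nearest the start gave -0.83, -2.45 and -2.03 in MPPs and -0.32, -0.51 and -0.63 in HSCs. The middle one gave -1.08, -2.95 and -2.13 in MPPs and -0.34, -0.94 and -0.40 in HSCs, and the last -1.20, -2.89 and -2.0 in MPPs and -0.32, -1.06 and -0.35 in HSCs. A longer region of 10 probes around it, chr11:95627874-95640824, averaged -0.51 ± 0.17, with 2 probes lower on all 6 arrays.

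The highest mean was at chr19:57426515-57435165, strand R, with 0.46, 2.12 and 1.78 in MPPs and 0.33, 2.21 and 1.14 in HSCs and a mean of 1.34 ± 0.32. Replicate 1 was the lowest array of each population there. At chr1:162965309-162970704, strand R, 4 of 10 probes were higher on all 6 arrays. The most even of these, at chr1:162966137-162966196, gave 0.64, 0.70 and 0.83 in MPPs and 0.54, 0.65 and 0.58 in HSCs, and all 10 probes together averaged 0.45 ± 0.18. At chr16:89961600-89971725, strand R, all 4 probes were higher on all 6 arrays, but they overlap each other. Their region averaged 0.99 ± 0.46, and MPP replicate 3, at 3.69, carried most of it.

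Other loci showed how the agreement was spread over arrays. At chr4:136856064-136875614, strand F, 3 of 5 probes were higher on all 6 arrays, and the region had -0.19, 0.42 and 0.99 in MPPs and 1.29, 0.54 and 2.43 in HSCs and a mean of 0.91 ± 0.29. HSC replicate 3 was its highest array, and 1 MPP array of the region mean lay below 0. Overlapping regions at chr1:59773381-59775888 and chr1:59775022-59780348, both on strand F, were each higher by 2 probes. The shorter one had 0.086, 0.18 and 1.5 in MPPs and 0.52, 1.81 and 0.30 in HSCs and a mean of 0.73 ± 0.29, and the longer one 0.35, -0.53 and 1.61 in MPPs and 1.79, 2.04 and 2.26 in HSCs and a mean of 1.25 ± 0.29. On MPP replicate 2 the mean of the longer one was below 0.

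Lower in KO by 3 of 5 probes were chr2:27394711-27402186, strand R, and chr6:83368261-83407280, strand F. The chromosome 2 region had -0.97, -2.77 and -1.04 in MPPs and -0.82, -0.32 and -0.16 in HSCs and a mean of -1.01 ± 0.28. The chromosome 6 region had -0.44, 0.022 and -0.47 in MPPs and -0.25, -0.80 and -1.02 in HSCs and a mean of -0.49 ± 0.17. At chr5:123582742-123588117, strand R, 2 of 5 probes were lower on all 6 arrays, and the region had -1.98, -1.46 and -0.92 in MPPs and -0.39, 0.17 and -0.67 in HSCs and a mean of -0.88 ± 0.20. The chromosome 5 and 6 regions each had 1 array above 0 in the region mean, where only the agreeing probes were below 0 throughout.

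The other strand was measured for 21 of the 40 regions, with a mean of the same sign in 17. The locus named next enters these counts once for each strand, and no such share was taken over all regions for comparison. The only locus that met the rule on both strands was chr14:26834450-26847000. Strand F averaged -0.77, -1.32 and -1.90 in MPPs and -0.14, -0.20 and -0.85 in HSCs, and strand R -0.77, -1.28 and -1.84 in MPPs and -0.098, -0.24 and -0.95 in HSCs. The means were -0.86 and -0.86, and probes of the 2 strands lie at overlapping positions. The strands gave nearly equal values on every array.

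Single probes with one sign on all 6 arrays and the smallest p gave larger effects, and most of these genes had no second kept probe. Lin28b, a fetal stem cell factor whose protein keeps let-7 microRNAs from maturing, had 3.65, 4.27 and 2.64 in MPPs and 0.80, 3.50 and 3.42 in HSCs. By this probe KO was above background on all 6 arrays and WT on 1, and KO averaged 8.28-fold higher (adjusted p 0.602 by limma). The probe passed the filter on dim probes through KO only. The other Lin28b probe was left out because no group, KO included, stood well above background on all 3 arrays. Bounds apply to a population where the lower channel was not well above background on any array. There that channel's signal was raised to the lowest signal well above background wherever it lay below it. For Lin28b this concerned MPPs and changed nothing, so 8.28 is its plain mean and not a bound. Zdbf2, an imprinted gene, had 0.15, 0.42 and 0.59 in MPPs and 2.18, 1.62 and 2.08 in HSCs, and Mrpl3, of the large mitochondrial ribosomal subunit, had 0.76, 1.03 and 0.29 in MPPs and 1.76, 2.24 and 1.91 in HSCs. In both genes every HSC array lay above every MPP array. Another Zdbf2 probe was left out as too dim in every group.

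Among single probes lower in KO, Tmem134, a membrane protein gene, had -0.82, -2.64 and -2.15 in MPPs and -1.55, -1.98 and -2.84 in HSCs and a mean of -2.0 ± 0.29. Rhox3a, a homeobox gene of the reproductive cluster on the X chromosome, had -1.26, -0.95 and -1.08 in MPPs and -1.06, -1.06 and -1.20 in HSCs and a mean of -1.10 ± 0.14. Its 6 arrays spanned the narrowest range of the single probes named. Zfp428, a zinc finger gene, had probes that differed. One probe averaged -1.33 ± 0.17 with all 6 arrays below 0, and the other averaged 0.060 ± 0.32.

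Further genes had a channel that was not well above background on any array of a population. Of 79 genes of this kind higher in KO, Sox11 was at least 1.66-fold higher, Mrgprb5 at least 1.65-fold and Pm20d1 at least 1.73-fold, each by 1 probe with KO above background on 6 arrays and WT on 0. These probes passed the filter on dim probes through KO only, so detection in KO and not in WT is part of how they were chosen. A second probe of Sox11 and of Pm20d1 was left out as too dim in every group, KO included. Sox11 is a developmental transcription factor and Mrgprb5 a receptor of the Mas-related G protein-coupled family. Of 7 lower in KO, Lyrm1 was at least 2.34-fold lower, with KO above background on 3 arrays, all of MPPs, and WT on 5. Kcnmb3 averaged 1.88-fold lower, a plain mean that the bound did not change, with KO above on 1 array and WT on 4. Its effect was -1.58 in HSCs and -0.25 in MPPs. Mnx1, a homeobox factor of motor neurons and pancreas, was at least 1.27-fold lower, with KO above on 0 arrays and WT on 4. In MPPs, Kcnmb3 and Mnx1 were each well above background on 0 KO arrays and 1 WT array. Their folds thus include signal not well above background. Stkld1 was below background in both channels on every HSC array, and no fold is given for it. Adjusted p-values by limma for these 7 genes were 0.602, or 0.618 for Mnx1. The surplus of higher genes stood beside a red channel that was brighter than the green one on every array, and the filter could keep genes of either direction through 1 channel alone. The part of either in these counts was not tested. Of the other genes named, Cbx2, Cdkn2a, Cdt1, Ebf1, Mrpl3, Olfr884, Perp, Platr26, Pmaip1, Psmc5, Rrs1, Sesn1, Xist and Zdbf2 had a channel well above background on fewer than 3 arrays of a population.

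Gene lists chosen for this tissue were described by their counts and medians, beside all genes, of which 49.2% had a positive mean and the median was -0.0065. No member of any list passed the test. Genes of the Polycomb system lay below 0 more often than above. Of 29 Polycomb subunits, 8 had a positive mean, and the median was -0.14, or 0.075 with median centring. Phc1, a polyhomeotic subunit of PRC1, had -0.48, -1.56 and -1.40 in MPPs and -0.40, -0.61 and -0.40 in HSCs and a mean of -0.81 ± 0.19, and in its gene mean with Cbx7 it was 1 of 2 subunits below 0 on all 6 arrays. Cbx2, another chromobox subunit, averaged -0.48 ± 0.20, but this came from HSCs. It had 0.028, 0.61 and -0.59 in MPPs and -0.82, -1.28 and -0.82 in HSCs. Pcgf5, a relative of Bmi1 in variant PRC1, averaged -0.37 ± 0.17. On the arrays the list's median was 0.060, -0.26 and -0.47 in MPPs and -0.40, 0.22 and 0.29 in HSCs, so its sign differed between arrays. Of 27 developmental regulators known as Polycomb targets, 8 had a positive mean, with a median of -0.080. Sox1, a neural factor, had -0.22, -0.51 and -0.0068 in MPPs and -0.68, -0.67 and -0.84 in HSCs, and Hand1, a factor of heart and trophoblast, had -0.26, -0.41 and -0.87 in MPPs and -0.12, -0.90 and -0.17 in HSCs, each below 0 on all 6 arrays. In all, 3 of these regulators were below 0 on all 6 arrays and 1 was above, where over all genes 3.11% were below and 2.98% above. On the arrays the median of these regulators was -0.063, -0.14 and 0.041 in MPPs and -0.11, 0.038 and -0.17 in HSCs, so its sign differed too. Of the 27, 16 were well above background on every array in both channels. One Phc1 probe was above 0 on 3 arrays, and both Sox1 probes were above 0 on some. Hand1 rested on 1 probe, and another was left out as too dim in every group.

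Stem cell markers and factors were mostly lower in KO, with 5 of 30 positive and a median of -0.21. Prdm16, a transcription factor needed for stem cell maintenance, had -3.28, -1.76 and -1.39 in HSCs, with KO well above background on 2 of 3 arrays there. In MPPs KO was above background on 0 arrays and WT on 2, so no ratio is given. Tal1, a master regulator of blood formation, had -0.088, -0.30 and -0.76 in MPPs and -1.05, -1.79 and -0.34 in HSCs. Tek, the angiopoietin receptor Tie2 of quiescent stem cells, had -0.096, -1.78 and -2.03 in MPPs and -0.082, -2.36 and -0.33 in HSCs. Both Tal1 and Tek were below 0 on all 6 arrays, while Fli1, an Ets factor, averaged -0.95 ± 0.33 with MPP replicates 2 and 3 lowest. Its median by array was -0.073, -0.32 and -0.74 in MPPs and -0.22, 0.024 and -0.34 in HSCs, and with median centring its median was 0.16.

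The fetal stem cell programme had 10 of 13 members positive and a median of 0.52. Hmga2, a chromatin protein of fetal stem cells, averaged 0.85 ± 0.37 and Igf2bp2, which binds its mRNA, 1.09 ± 0.57. On the arrays its median was 0.44, 0.54 and 0.80 in MPPs and 0.77, 1.84 and -0.98 in HSCs, positive on 5 of them. The median was 0.060 without HSC replicate 2, and it was -0.064 when probes had to be well above background in both channels, a filter that Lin28b does not pass.

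CDK inhibitors were split, with 4 of 8 positive and a median of 0.079 whose sign depended on the setting. It was 0.53 with the deposited log ratio, -0.26 with probes well above background in both channels, and between -0.060 and 0.32 without 1 replicate. Cdkn2c, which encodes p18Ink4c, had 1.22, 0.35 and 0.13 in MPPs, and in HSCs WT was well above background on 0 arrays and KO on 2. Cdkn1a, the p53 target p21, averaged 0.61 ± 0.34 and Cdkn1b, p27, -0.45 ± 0.29. Of 20 p53 targets 13 were positive, with a median of 0.17. This was the only one of the 15 lists plotted whose median was above 0 on every array, with 0.18, 0.043 and 0.30 in MPPs and 0.26, 0.38 and 0.062 in HSCs. Averaged per gene over the arrays of a population, however, the members had a median of -0.030 in MPPs and 0.33 in HSCs. The positive array medians thus did not mean that most members were higher in MPPs. Gadd45a, a growth arrest gene, had 0.39, 2.32 and 1.35 in MPPs and 0.95, 4.91 and 0.26 in HSCs and Pmaip1, the death gene Noxa, had 1.99, 3.37 and 0.97 in MPPs and 1.04, 0.24 and -0.92 in HSCs. Sesn1, a stress sensor, averaged 0.58 ± 0.25 and Perp, a membrane protein of p53-dependent death, 0.80 ± 0.34.

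Immediate early genes, which are induced within minutes by growth signals and also by cell dissociation, had 18 of 25 members positive and a median of 0.61. Egr2 had 0.48, 1.1 and 0.45 in MPPs and 1.23, 2.46 and 1.59 in HSCs and Fos, a partner in AP-1, had 1.73, 1.76 and 0.58 in MPPs and 0.65, 2.36 and 0.85 in HSCs, each above 0 on all 6 arrays. Atf3 had 5.56, 2.40 and 0.77 in MPPs and 4.53, 6.42 and -0.32 in HSCs, and Klf6 had 2.56, 2.16 and 0.29 in MPPs and 2.17, 3.11 and -0.31 in HSCs. Both of these were below 0 on HSC replicate 3. The list's median by array was 1.08, 0.25 and -0.18 in MPPs and 0.84, 1.30 and -0.57 in HSCs, so it was below 0 on 2 of the 6.

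Lists of growth and protein synthesis had medians that moved with the scaling. With median centring they were 0.61 for ribosome biogenesis, 0.67 for the spliceosome, 0.80 for chaperones and 0.57 for replication, against 0.21, 0.20, 0.28 and 0.19 with loess. Without 1 replicate the chaperone median lay between 0.17 and 0.61 (without HSC replicate 1) and the spliceosome median between 0.11 and 0.32. Ribosome biogenesis factors had 33 of 45 positive and a median of 0.21. Nucleolin (Ncl) was above 0 on all 6 arrays, with 0.67, 0.48 and 0.99 in MPPs and 0.30, 0.46 and 0.72 in HSCs, and Tcof1, whose mean turned with median centring, was below 0 on all 6 with loess. Rrs1, an assembly factor of the large subunit, averaged 1.55 ± 0.45 and Nop58, of box C/D particles, 0.70 ± 0.24, both with HSC replicates 2 and 3 highest. Cytosolic ribosomal proteins had 19 of 40 positive and a median of -0.036, but 0.69 with median centring and 0.48 with centring on the kept probes. Rpl14 had 0.67, 1.17 and 0.84 in MPPs and 0.38, 1.47 and 0.42 in HSCs, and Rps16, below 0 on all 6 arrays, had -0.052, -1.36 and -2.63 in MPPs and -0.29, -0.32 and -1.72 in HSCs. These are gene means. The probes that kept the sign on all 6 arrays were 1 of 2 for Ncl, 0 of 3 for Rpl14 and 1 of 3 for Rps16. Spliceosome genes had 24 of 36 positive and a median of 0.20, and the core protein Snrpd2 averaged 1.11 ± 0.25. Chaperones had 17 of 21 positive and a median of 0.28. Among them Hsf1, the heat shock transcription factor, had 1.38, 0.27 and 1.66 in MPPs and 0.65, 0.23 and 0.081 in HSCs, but was well above background on only 1 array of KO HSCs, of WT HSCs and of WT MPPs. Cct5, of the CCT chaperonin, had 0.63, 0.25 and 0.22 in MPPs and 0.21, 1.58 and 1.04 in HSCs. Replication genes had 26 of 40 positive and a median of 0.19. Gins3, of the replicative helicase, had 0.91, 1.04 and 0.71 in MPPs and 0.29, 1.45 and 1.15 in HSCs, and Cdt1, which licenses origins, had 0.32, 0.31 and 0.0042 in MPPs and 0.83, 3.63 and 4.29 in HSCs and so rested on HSC replicates 2 and 3.

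Interferon response genes had 11 of 26 members positive and a median of -0.15, or 0.14 with median centring. Ifitm3, an antiviral membrane protein, had -0.091, -0.95 and -1.63 in MPPs and -0.55, -0.36 and -0.65 in HSCs and Ifi44 had -0.84, -0.43 and -0.98 in MPPs and -0.70, -1.98 and -0.026 in HSCs, each below 0 on all 6 arrays, although Ifitm3 came to 0.033 with median centring. Ifit2 averaged -0.65 ± 0.19 and Oas2 0.45 ± 0.18, so members differed in sign. Lymphoid progenitor markers had 9 of 17 positive and a median of 0.057.

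B lineage genes had the highest median of the 15 lists plotted, 1.21, with 11 of 13 positive, and it came mainly from the MPP arrays. On the arrays its median was 0.63, 2.11 and 2.24 in MPPs and 0.096, -0.11 and -0.47 in HSCs. The highest medians were those of MPP replicates 2 and 3, the arrays in the second row of the slide, where no HSC array lay. With probes well above background in both channels the median was 0.50. Ebf1, the factor that specifies B cells, had 3.39, 5.84 and 6.38 in MPPs and 0.58, -0.11 and 1.93 in HSCs. Pax5, the factor that commits cells to the lineage, had 2.14, 3.46 and 3.11 in MPPs and 0.0076, -0.22 and -0.47 in HSCs. Igll1, part of the surrogate light chain, had 2.44, 5.15 and 4.50 in MPPs and -0.33, -0.060 and 1.27 in HSCs. Of the 13 genes, 12 had a positive mean in MPPs and 6 in HSCs, and the difference had an unadjusted p under 0.05 in 7. None of the differences passed adjustment (adjusted p 0.977 by limma). Rag1 and Cecr2 followed the same order of MPP arrays as the list's median, and the part of B lineage cells in their values was not tested.

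**Figure D4:**
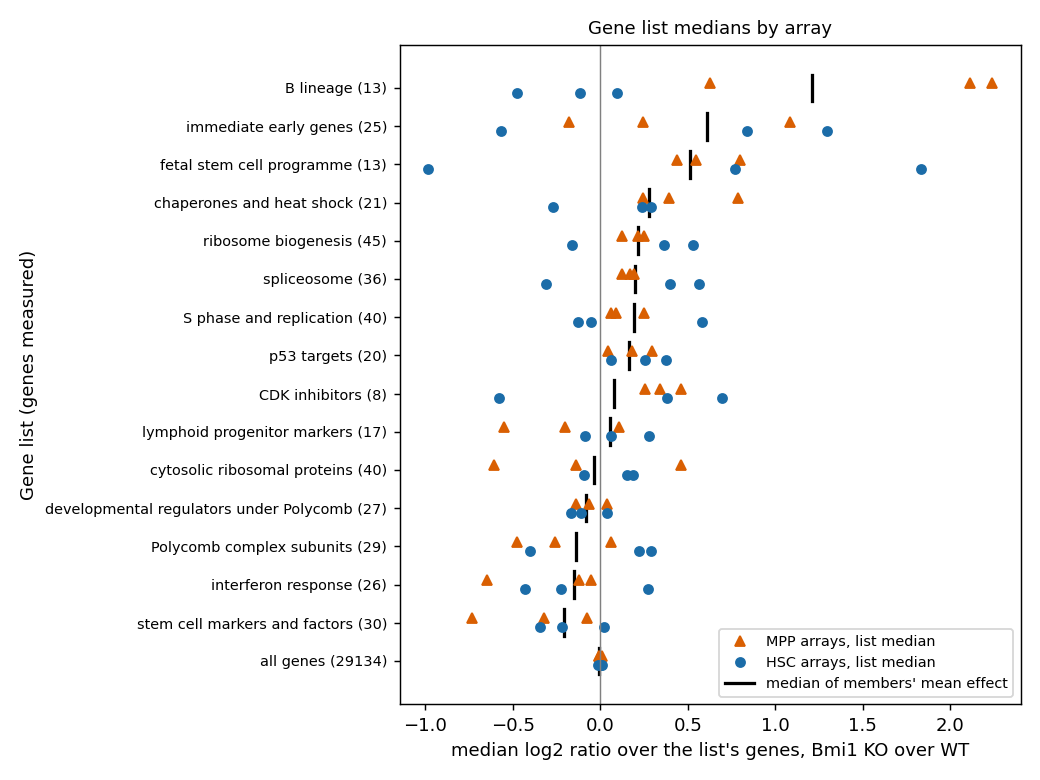
Median log2 ratio of KO over WT over the members of 15 gene lists (x axis; lists with the number of genes measured on the y axis) on every MPP array (triangles) and HSC array (circles), with the median of the members' mean effect as a bar. B lineage genes separate the populations, with MPP arrays at 0.63 to 2.24 and HSC arrays at -0.47 to 0.096. The array medians of p53 targets lie above 0 on all 6, although the median of their mean effects in MPPs was -0.030.

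Across 29134 genes, the MPP and HSC effects correlated with r = 0.10, and 56% of genes had the same sign in both. The genes are not independent, and the value is a description. The difference of MPPs minus HSCs passed for 0 probes and 0 genes by limma, with a smallest adjusted p of 0.968 and 0.977. At an unadjusted p under 0.05 it gave 1853 probes (4.15%) and 1231 genes (4.23%), against 3527 probes (7.9%) and 2358 genes (8.09%) for the shared effect.

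**Figure D5:**
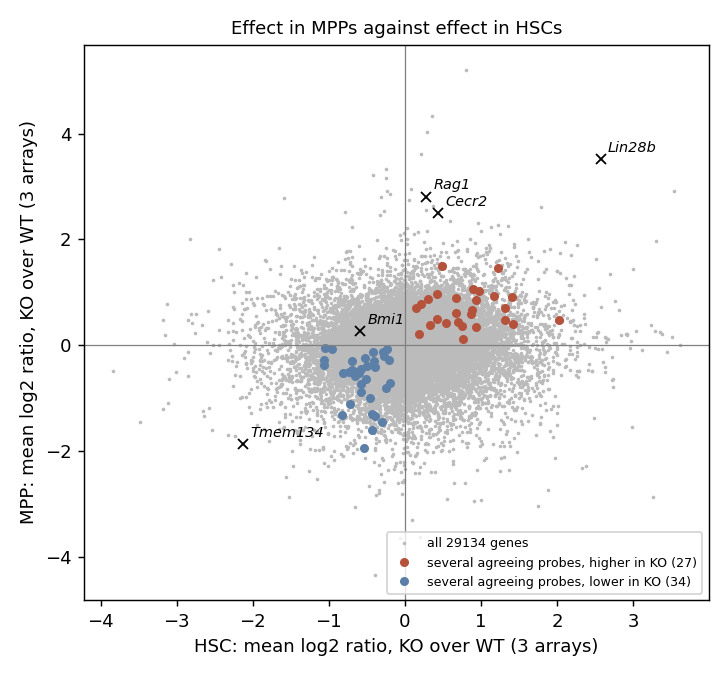
Mean log2 ratio of KO over WT in MPPs (y axis, 3 arrays) against that in HSCs (x axis, 3 arrays) for all 29134 genes in grey and for the genes and regions with several agreeing probes in colour. The cloud has r = 0.10, and the 27 higher and 34 lower ones lie in the quadrants of equal sign, as the rule requires.

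Probe composition moved with direction. Probes higher on all 6 arrays had a median GC content of 41.7% (quartiles 36.7% and 45%), those lower had 45% (41.7% and 51.7%), and all kept probes had 45% (38.3% and 45%). Of probes with at most 35% GC, 4.29% were higher on all 6 arrays and 2.22% lower, and of those above 50% the shares were 2.03% and 4.68%. The median log2 ratio was 0.040 in the first group and -0.076 in the second. Probes well above background in both channels on all arrays made up 72% of the higher and 87.3% of the lower probes, against 76.3% of all kept probes. For the one-sign probes of the 61 genes and regions the median GC was 43.3% (higher) and 45% (lower), and the share measured in both channels 71.2% and 91.7%. The part of base composition and of dye in the counts was not tested.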

How the data were processed

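RNA of 6 samples per genotype was measured on 6 dual-colour Agilent arrays of 62976 spots. Per the labels' protocols, 10 µg of total RNA was labelled by reverse transcription. The deposited spot files hold the intensity of each spot and its local background in both channels, read with Agilent Feature Extraction 10.7.3.1 per the file headers, but as 8.5.1.1 per the submitters' processing notes. The deposited log ratio is the log10 of the processed red over green signal, per the file headers. The series table holds that same log10 value for all spots, with a median of 0 on each array.

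The deposited mean intensities were background-corrected by normexp with an offset of 50 in limma (version 3.58.1, under R 4.3.3). Ratios of KO to WT were then taken on the log2 scale and loess-normalized within each array. Control spots (3671) were left out after correction. Spots of 1 probe were averaged, and a probe was kept if it stood well above background on the 3 arrays of any genotype and population. Of 55681 probes, 11001 were too dim and 40 lacked a value, which left 44640 probes of 29134 genes. Current symbols came through RefSeq accessions for 49.3% of kept probes and otherwise from the array files. Different probes of a gene were averaged for the gene fit. The fit (lmFit and eBayes) had 1 mean per population and 6.37 degrees of freedom for probes and 6.35 for genes. P-values were two-sided and adjusted over all probes or all genes, with a threshold of 0.05. They measure the spread between these samples. The number of arrays limits the precision. The code was tested on simulated data. R packages jsonlite (version 2.0.0) and data.table (version 1.17.8) read the files.

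The members, the 37 gene lists (948 members, 840 measured) and the rules were chosen with earlier results of these data known. The text names Bmi1 and the Cdkn2a and Cdkn2b genes in any case. By the smallest p it names up to 12 genes per direction with several agreeing probes, filled up from the wider class, with 5 single probes and up to 4 bounded genes per direction and 2 to 4 members of a list. The results describe 15 lists, the closing observations give counts for further ones, and clones, predicted genes and accessions were counted but not named. The lincRNA regions in the text were chosen after their values were seen, by mean or by number of agreeing probes. Some genes that the rule would name are not reported here.

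Other settings were no background subtraction, median centring, the deposited log ratio, other filters on dim probes, each replicate left out, a replicate block, the slide row as a block, 1 mean over all arrays, a trended robust prior and the brightest probe per gene. Replicates of the same number in MPPs and HSCs deviated together with r of -0.066, 0.00057 and 0.0062. The main fit used no pairing, but arrays this weakly correlated cannot decide whether the numbers pair the samples.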

Additional observations from a re-analysis of the deposited data

Results flagged for a closer look

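In 4 genes named by rule as list members, every MPP array lay on one side of 0 and every HSC array on the other. The difference of MPPs minus HSCs was tested for each by limma and did not pass, with an adjusted p of 0.977. The difference was 2.79 ± 0.68 for Cma1, a mast cell protease, 2.13 ± 0.53 for Lef1, a transcription factor of early lymphoid cells, -1.64 ± 0.34 for Fzd7, a Wnt receptor, and -0.96 ± 0.31 for Psma1, a proteasome subunit. Fzd7 was well above background on 0 WT HSC arrays and on 2 arrays of either genotype in MPPs, so its difference includes signal not well above background. Lef1 had ratios of 1.17, 1.89 and 3.17 in MPPs and -0.056, -0.080 and -0.036 in HSCs. Groups of 3 arrays were not searched for outlying arrays.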

How the results depend on the processing

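The count of 0 probes and 0 genes passing by limma was kept without background subtraction, with the deposited log ratio (smallest adjusted p of a gene 0.0565), under both filters on dim probes and in each fit without 1 replicate. The slide row as a block gave the same p-values as leaving out MPP replicate 1, so it is no separate check. The replicate block, tried as an alternative, also gave 0, with a smallest adjusted p of 0.652 for probes and 0.619 for genes. Median centring gave 157 probes and 92 genes, all higher in KO, 5757 probes higher on all 6 arrays, and 353 genes higher and 10 lower with several agreeing probes. Centring on the kept probes, chosen after seeing the data, gave 55 probes and 36 genes higher and 1 gene lower, 2927 and 3455 one-sign probes, and 139 and 110 agreeing genes. Of the 61 agreeing genes and regions, these centrings kept 26 and 27, and pairs that do not overlap (also chosen after seeing the data) gave 19 and 28. Without 1 replicate, between 48 and 98 genes agreed in the higher and between 64 and 96 in the lower direction, over 2064 to 2475 and 2148 to 2329 one-sign probes on the 5 remaining arrays. Means turned under median centring for Arglu1 (0.087), Bmi1 (0.085), Cd27 (0.11), H2-K2 (0.40), Ifitm3 (0.033), Mef2c (0.20), Pax2 (0.0095) and Tcof1 (0.053), and on the kept probes for H2-K2 (0.20). Bmi1 also turned with the deposited log ratio (0.16) and without HSC replicate 2 (0.21), with the lowest value of -0.41 without HSC replicate 3. Cdkn2a turned without HSC replicate 1 (-0.0082) and reached 0.70 without HSC replicate 3, and Cdkn1b (0.16) and Zfp428 (0.060) with the brightest probe. The causes were not tested. Signal over background limits the bounded genes.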

Other observations

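Lists of mature blood and other cells, described here by counts only, had medians between -0.18 and 0.19 and signs that varied over the arrays. Neutrophil genes had 10 of 14 members with a positive mean log2 ratio of KO over WT and a median of 0.17, and genes of basophils, mast cells and eosinophils had 9 of 15 and 0.19. Erythroid genes had 8 of 16 and a median of 0.030, with array medians between -0.40 and 1.45 in MPPs and between -0.79 and 0.21 in HSCs. Monocyte and macrophage genes had 6 of 14 and -0.042, megakaryocyte and platelet genes 7 of 11 and 0.066, T and NK cell genes 5 of 14 and -0.18, and endothelial and stromal genes 5 of 11 and -0.019. No member of these lists passed the test by limma.

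Among housekeeping lists, proteasome genes had 23 of 33 members positive and a median of 0.24, and their array medians were above 0 on 5 of 6 arrays. Psmc5, an ATPase subunit of the proteasome cap, was above 0 on all 6, with 0.96, 0.37 and 0.65 in MPPs and 0.87, 1.53 and 4.21 in HSCs. In HSCs WT was well above background on 2 arrays for this gene. Histone genes had 10 of 13 positive and a median of 0.26, and H2bc4, a core histone, had 0.76, 0.77 and 1.79 in MPPs and 1.18, 0.034 and 1.89 in HSCs, where KO was well above background on 2 arrays and WT on 1. Genes of the unfolded protein and integrated stress response had 17 of 25 positive and a median of 0.13. Hspa5, the chaperone BiP of the endoplasmic reticulum, was above 0 on all 6 arrays, with a mean of 0.65 ± 0.18. Aminoacyl-tRNA synthetases had 14 of 20 positive and a median of 0.25. Notch and Wnt pathway genes had 8 of 24 positive and a median of -0.073. The gene mean of Notch2 was below 0 on all 6 arrays, as was 1 of its 2 probes, and averaged -0.70 ± 0.24. Hox genes had 11 of 26 positive and a median of -0.071. With median centring the medians of 11 of the 37 lists changed sign.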
